A study of Arabidopsis thaliana with 48 samples.

Results

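The leaf-enriched genes of Arabidopsis thaliana seedlings were chosen by the wild-type group means, as those whose mean log2 value in leaves exceeded that in shoot apices by at least 2.5 in short days (SD) and also by at least 2.5 after transfer to long days (LD). The rule was met by 77 of the 31004 genes on the AGRONOMICS1 tiling array, of which 73 are annotated as protein coding, 2 as noncoding RNA and 1 as a transcribed pseudogene, and 1 chloroplast gene has no entry in the annotation table. The wild type (FLC/SVP in the labels, cultivar Columbia) carried a functional FRIGIDA allele, as did the 3 mutants compared with it, each represented by 1 allele combination: svp (FLC/svp, allele svp-41), flc (flc/SVP, allele flc-3) and the flc svp double mutant (flc/svp). Leaves and apices were harvested 8 h after dawn from plants grown for 2 weeks in SD, or for 2 weeks in SD followed by 2 days in LD, with 3 arrays in each of the 16 groups. The labels are not uniform on whether the SD plants received 2 further short days, so day length and an age difference of 2 days cannot be told apart. Values are log2 signals after robust multi-array averaging (RMA), and a difference of 1 is a 2-fold difference.

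FLC and SVP are MADS-box transcription factors that repress flowering. FRIGIDA keeps FLC active in plants that have not passed through winter, and losing FLC, SVP or both allows earlier flowering. Genes that are active in expanded leaves and nearly silent in the apex commonly serve photosynthesis and carbon fixation, the loading of sucrose into the phloem, and the production of defence compounds and hormones such as jasmonate, which is made from plastid fatty acids. The apex samples hold the meristem with very young organs, whose chloroplasts are still developing.

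The rule was set on the wild-type means, so the wild-type contrast of leaf and apex is given only as a description. The median difference of the 77 genes was 2.97 in SD and 3.23 in LD. The 10 genes with the largest mean of both differences were AT1G66100 (5.82), AT1G23130 (5.74), SWEET11 (5.09), ACD6 (4.86), CYP706A6 (4.69), AT5G35480 (4.48), FAMT (4.42), FBA5 (4.34), SWEET12 (4.11) and MES18 (4.08). SWEET11 and SWEET12 export sucrose from leaf cells for phloem loading, FBA5 is a fructose-bisphosphate aldolase, ACD6 is a membrane protein of salicylic acid-dependent defence, CYP706A6 is a cytochrome P450, FAMT methylates farnesoic acid, and MES18 belongs to the methylesterase family. Just inside the limit lay AT4G15680 (2.80 in SD and 2.51 in LD), Lhca6 (2.51 and 3.10) and LEA3 (3.15 and 2.5), and just outside it AT5G57760 (2.47 and 2.51), AT2G44290 (2.75 and 2.47) and AT1G64680 (2.46 and 2.62). A limit of 2 would take in 189 genes and a limit of 3 would leave 31.

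By function, and grouped after the members were known, 13 of the genes were placed in photosynthesis and carbon metabolism, 4 in jasmonate synthesis, 5 in defence and 2 in sugar export. The other 53, among them AT1G66100 and the chloroplast gene ATCG00420, were not placed, so these groups may be incomplete. The first group holds the carbonic anhydrases CA1 and CA2, the NdhL, NdhT, PnsB1 and PnsL2 subunits of the chloroplast NADH dehydrogenase-like complex, the light-harvesting proteins LHCB2.3 and Lhca6, CP12-2, which holds Calvin cycle enzymes inactive in the dark, FBA5, the cytosolic fructose-bisphosphatase FBP, the plastid glycolate transporter LrgB and the photorespiratory catalase CAT2. The genes lie on chromosomes 1 (16 genes), 2 (7), 3 (16), 4 (19) and 5 (18) and in the chloroplast genome (1). There are 4 pairs within 2 steps of each other in locus order, namely AOC1 with AOC2, DCF with SWEET11, AT4G15660 with AT4G15680, and AT5G35480 with MRU1. Probes may be shared between the related copies AOC1 and AOC2 or AT4G15660 and AT4G15680, and this was not tested.

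In each tissue, every array with functional FLC lay above every flc array for FLC, and the same was true for SVP (in leaves by the narrow margin of 7.77 against 7.63). Of 14 shoot apex markers, 7 were more than 2-fold higher in wild-type apices in both day lengths and 0 in leaves, the log2 of their summed level being 8.37 to 8.55 in the leaf groups and 10.48 to 10.64 in the apex groups. Of 14 photosynthesis genes 4, and of 9 guard cell genes 3, were more than 2-fold higher in leaves, and 0 of 8 root markers differed 2-fold either way (6.95 to 7.12 in leaves and 7.07 to 7.39 in apices). Arrays of one group correlated at r = 0.986 to 0.993 over all genes, and array medians lay between 4.27 and 4.38. In apices 13 of the 77 genes had means below the lowest array median in all 8 groups and 25 in at least 1, against 0 in leaves. The deposited values carry no background measure, so whether these apical levels were above background is not known, and differences against them may be understated.

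The first question was whether leaf enrichment held without FLC or SVP. A gene was called when limma, fitted to all 48 arrays, gave a Benjamini-Hochberg adjusted p under 0.01 over all genes and a change of more than 2-fold. The differences in these contrasts use no wild-type array, but their SE and adjusted p rest on the spread over all 48 arrays, wild-type ones included. The rule asked for at least 2.5 in the wild type, well above the 2-fold call. The counts therefore describe how far the difference was kept and are not an independent test. All 77 genes were called higher in leaves than in apices in svp in SD (4.53% of all genes were called higher), in svp in LD (4.84%), in flc in LD (5.53%) and in flc svp in LD (4.94%), and 76 of 77 in flc in SD (5.28%) and in flc svp in SD (4.53%). The median difference was 2.92 in SD and 3.08 in LD in svp, 3.03 and 3.21 in flc, and 2.89 and 2.98 in flc svp, against medians over all genes between -0.01 and 0.05. In 5 of these 6 settings the leaf and apex arrays of all 77 genes did not overlap, and in flc in SD PRE1 alone overlapped. The share of all genes without overlap was not counted, so nothing particular to the 77 genes is read from this count. In these settings 44% to 51% of all genes had an unadjusted p under 0.05 in limma, higher or lower.

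**Figure D1:**
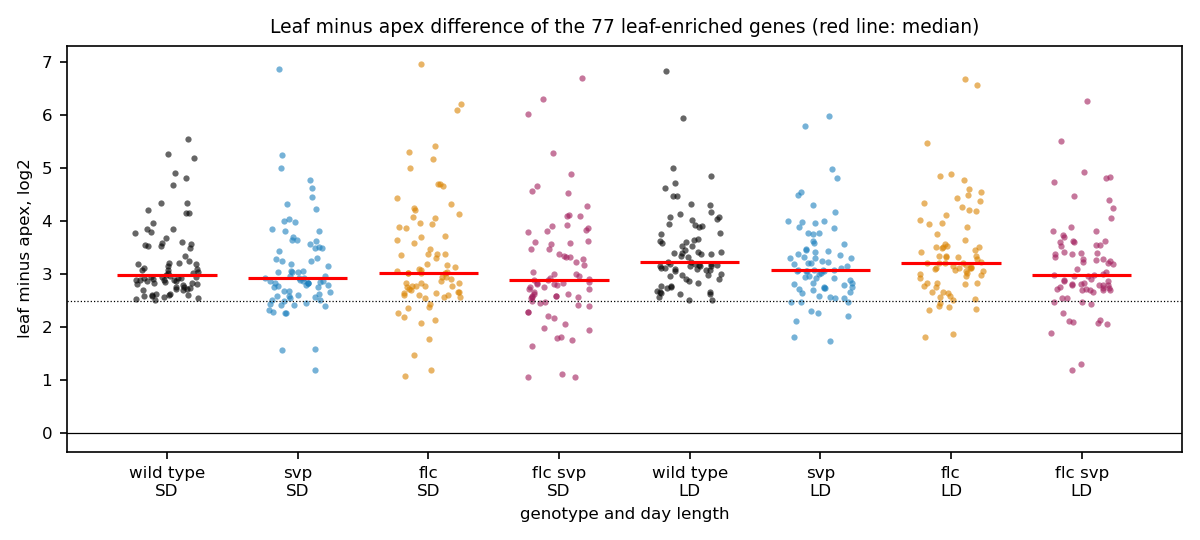
Each point is 1 of the 77 leaf-enriched genes, at its mean log2 value in 3 leaf arrays minus that in 3 apex arrays (vertical axis), in each genotype and day length (horizontal axis). The dotted line is the limit of 2.5, which by construction all wild-type points meet. Medians (red lines) stay between 2.89 and 3.23 and every point lies above 0, with the lowest at 1.05.

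The size of the difference was less uniform than its sign. In the mutants it stayed at 2.5 or more in 58 (flc svp, SD) to 70 (flc, LD) of the genes, and 48 genes reached 2.5 in all 6 mutant settings. AT1G54820, AT4G29110 and AT5G02760 reached it in none and PRE1 in 1, and LURP1, NCED4 and AT5G22270 reached it in 2. NdhT, a chloroplast NADH dehydrogenase-like subunit, varied least, with differences between 2.74 and 3.01 over the 8 combinations of genotype and day length, and PRE1 varied most, between 1.08 and 3.91. The largest difference in each mutant and day length was that of AT1G23130 (5.98 to 6.96). The smallest were those of AT5G02760 in svp in SD (1.19), LURP1 in svp in LD (1.74), PRE1 in flc in SD (1.08), AT1G76955 in flc in LD (1.81), AT4G29110 in flc svp in SD (1.05) and LURP1 in flc svp in LD (1.19). PRE1, a small helix-loop-helix protein that promotes cell elongation, missed the threshold in SD, in flc (1.08 ± 0.42 (SE), adjusted p = 0.0371) and the double mutant (1.11 ± 0.42, adjusted p = 0.0303, or 1.56 and adjusted p = 0.00495 without flc svp leaf array 3).

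The second question was how the leaf-enriched genes responded to loss of FLC and SVP within one tissue. Over all 12 comparisons of a mutant with the wild type, 11 of the 77 genes were called in at least 1 (3.48% of all genes were), 10 of them in leaves (AOC1, FAMT, AT3G04210, AT5G24210, LURP1, ACD6, CYP706A6, AT4G29110, NCED4 and PRE1) and 2 in apices (PRE1 and SWEET12). In SD leaves 0 members rose (0.793% of all genes) and 1 fell (0.123%) in svp, 3 rose (1.48%) and 3 fell (0.306%) in flc, and 2 rose (1.2%) and 5 fell (0.545%) in flc svp, 7 in all (1.75% of all genes). In LD leaves 1 rose (0.593%) and 4 fell (0.261%) in flc svp, while in svp (0.116% higher, 0.0677% lower) and flc (0.729% and 0.1%) 0 members were called. At an unadjusted p under 0.05 the same limma fit gave 2 higher and 9 lower in svp and 5 higher and 8 lower in flc in LD leaves (11.9% and 15% of all genes passed either way), and 2 higher and 10 lower in svp in SD leaves (14.9%). When leaves were fitted alone, AOC1, LURP1, CYP706A6 and AT4G29110 kept their calls in SD leaves of flc svp, and AOC1 alone did in LD leaves. Since the samples are whole leaves and apices, fewer cells of a type and less RNA per cell cannot be told apart in any of these changes.

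These counts share their wild-type arrays with the rule, which favours genes that happened to be high in wild-type leaves and low in wild-type apices. Over the 77 genes the median change in SD leaves was -0.03, -0.04 and -0.12 for svp, flc and flc svp, and in LD leaves it was -0.03, -0.02 and -0.00, against -0.03 to 0.01 over all genes. When the same rule was applied to the flc svp means it chose 88 genes, 54 of them among the 77 (61.4% of the 88 and 70.1% of the 77), and their median change in flc svp was 0.40 in SD leaves and 0.38 in LD leaves. The sign of the median in flc svp leaves thus differed with the genotype in which leaf enrichment was defined, and no shift of the leaf-enriched genes as a group is read from it.

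**Figure D2:**
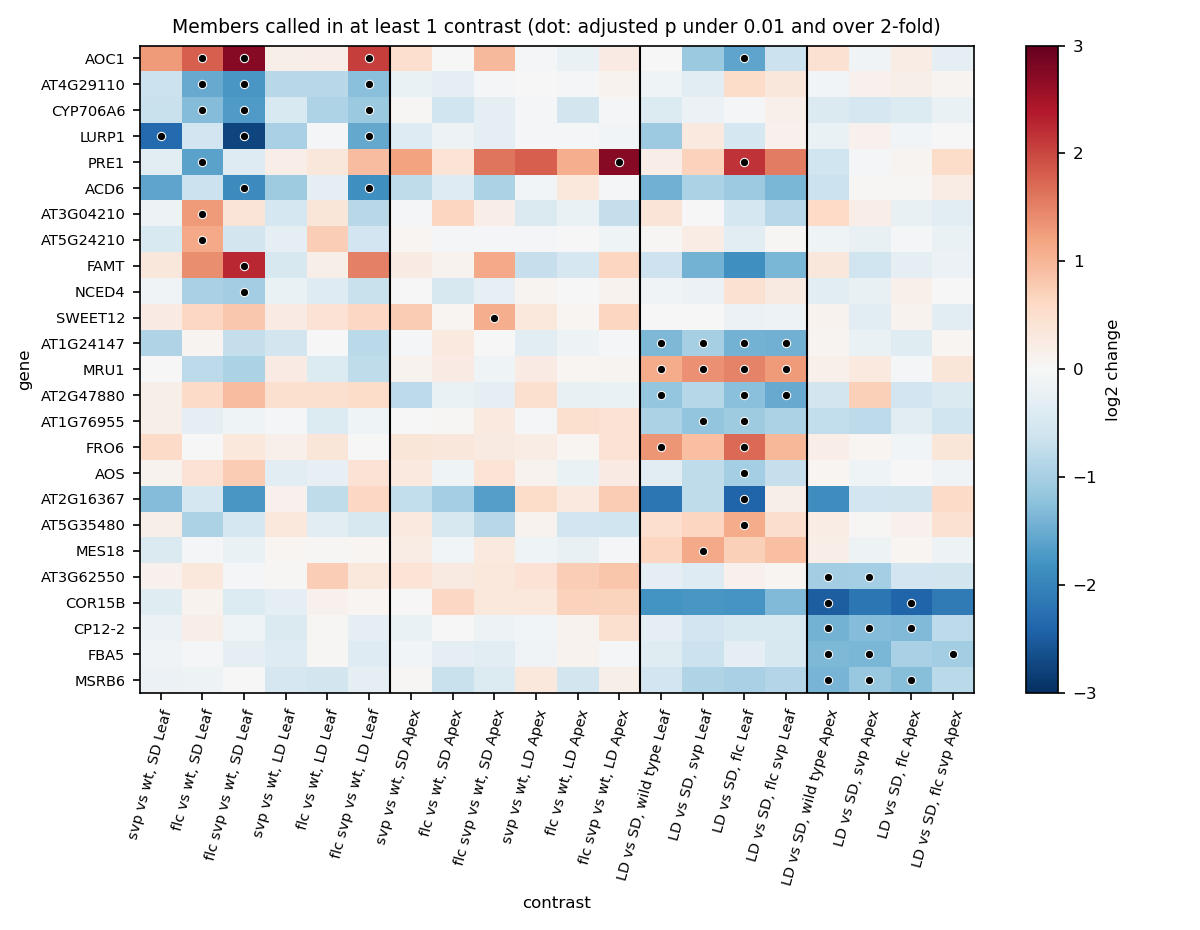
The 25 leaf-enriched genes called in at least 1 comparison of a mutant with the wild type or of LD with SD (rows), with the log2 change in each of the 20 comparisons (columns, red higher and blue lower). Dots mark calls (adjusted p under 0.01 and more than 2-fold). Calls against the wild type lie almost wholly in leaves, and the 5 genes called for LD in apices carry no dot in any leaf column.

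Jasmonate synthesis was represented by LOX2, AOS, AOC1 and AOC2, which encode a lipoxygenase, an allene oxide synthase and a pair of allene oxide cyclases acting in that order, and of these AOC1 changed with genotype. In SD leaves AOC1 measured 8.57, 8.61 and 10.46 on the 3 wild-type arrays, 10.58, 10.28 and 10.63 in svp, 11.57, 10.59 and 10.83 in flc, and 11.96, 12.04 and 11.80 in the double mutant. All flc and flc svp arrays lay above all wild-type arrays, and wild-type array 3 stood apart from the other two. AOC1 rose by 1.78 ± 0.34 (SE) in flc (limma adjusted p = 0.000267) and by 2.72 ± 0.34 in the double mutant (adjusted p = 2.25e-07), and its value of 1.29 in svp missed the threshold (adjusted p = 0.018), which it passed without wild-type array 3 (1.90, adjusted p = 8.01e-05). In LD leaves AOC1 measured 9.36, 9.34 and 8.94 in the wild type and 10.80, 11.54 and 11.55 in flc svp. The groups did not overlap, and the rise was 2.08 ± 0.34 (adjusted p = 5.61e-05), whereas svp (0.18) and flc (0.21) stayed within 1 SE of the wild type.

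The other leaf-enriched jasmonate enzymes changed less than AOC1 in the same leaves. AOS measured 10.01, 9.90 and 10.69 in wild-type SD leaves and 11.02, 10.97 and 10.88 in flc svp, a difference of 0.76 ± 0.19 that passed the adjusted p (0.00541) but not the fold threshold. Without wild-type array 3, which was the highest of the 3 for AOS too, it was called (1.01, adjusted p = 0.000371). LOX2 differed by 0.65 ± 0.35 (adjusted p = 0.278) and AOC2 by 0.49 ± 0.24 (adjusted p = 0.232) in flc svp SD leaves. CORI3, a coronatine- and jasmonate-induced aminotransferase family member, differed by 0.56 ± 0.36 (adjusted p = 0.406) there and by 1.01 ± 0.36 (adjusted p = 0.0889) in LD leaves.

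FAMT measured 7.27, 7.19 and 9.30 in wild-type SD leaves and 10.49, 10.20 and 9.86 in flc svp, and it rose by 2.27 ± 0.55 (adjusted p = 0.00407). Wild-type array 3 was again the highest of its group. The call was lost without wild-type array 1 (1.91) or 2 (1.91) or flc svp array 1 (2.14) or 2 (2.24), and when leaves were fitted alone. In LD leaves the value was 1.52 ± 0.55 (adjusted p = 0.0977).

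The leaf-enriched jasmonate genes can be set beside a list of 27 jasmonate genes, of which they are 5. In SD leaves 11 of the 27 were called higher in svp (0.793% of all genes), 15 in flc (1.48%) and 18 in the double mutant (1.2%). The median changes were 0.83, 1.24 and 1.62. In LD leaves 14 were called higher in flc svp (0.593% of all genes, list median 1.34) and 0 in svp (0.116%) and flc (0.729%). No gene of the list was called lower in these leaf comparisons. The list was drawn up with earlier results of these data known, so its direction is not independent evidence. The repressor genes JAZ7 (3.43 in flc svp and 4.34 in svp, SD) and JAZ9 (2.58 in flc svp, SD), the cyclase AOC3 (2.84) and the reductase OPR3 (2.69) were among the list genes outside the leaf-enriched set with the higher values in SD leaves of flc svp. The storage protein genes VSP1 and VSP2 and the defensin gene PDF1.2, which respond to jasmonate, were called in no leaf comparison of a mutant with the wild type. VSP1 had -0.54 in svp and -0.0078 in flc svp in SD and 1.62 in flc svp in LD, VSP2 had -0.27, -0.022 and 0.74, and PDF1.2 had -1.37, -0.28 and -1.96.

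**Figure D3:**
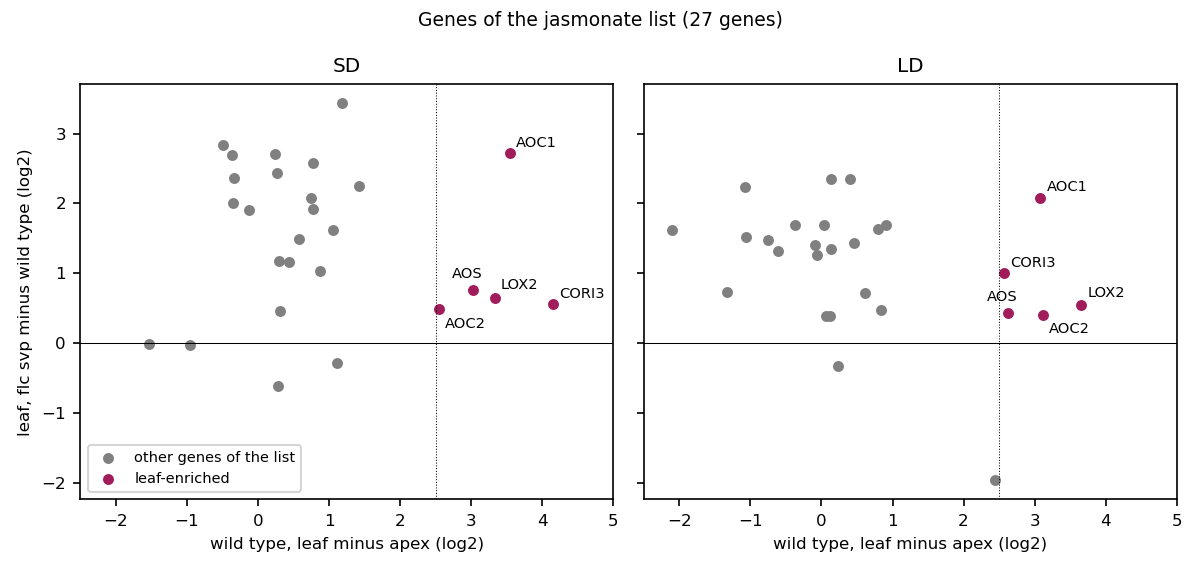
Each point is 1 of the 27 genes of the jasmonate list, with the wild-type leaf minus apex difference on the horizontal axis and the flc svp minus wild type difference in leaves on the vertical axis (both log2), in SD and LD. Both axes contain the wild-type leaf arrays. Leaf-enriched genes are coloured and lie right of the dotted limit of 2.5, and AOC1 is the 1 among them above 2 on the vertical axis in both day lengths.

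Of the 5 defence genes, LURP1 and ACD6 fell in leaves of flc svp, and LURP1 also in svp. LURP1, named for its late induction by a downy mildew pathogen, measured 6.76, 7.47 and 7.29 in wild-type SD leaves, 5.35, 4.49 and 4.65 in svp, 6.58, 6.58 and 6.6 in flc, and 4.32, 4.56 and 4.38 in the double mutant. The svp and flc svp arrays lay below all wild-type and flc arrays. LURP1 fell by 2.34 ± 0.32 in svp (adjusted p = 5.02e-06) and by 2.75 ± 0.32 in the double mutant (adjusted p = 7.8e-08), and differed by -0.59 in flc (adjusted p = 0.35). In LD leaves it measured 7.26, 5.67 and 5.33 in the wild type and 4.70, 4.78 and 4.21 in flc svp. The groups did not overlap and LURP1 fell by 1.53 ± 0.32 (adjusted p = 0.00167), but the wild-type spread was wide, and the call was lost without wild-type array 1 (-0.96) or flc svp array 3 (-1.37). This call was also lost when leaves were fitted alone.

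ACD6 had its lowest SD leaf values in the same genotypes. Its SD leaf values were 9.92, 10.35 and 10.22 in the wild type, 8.49, 8.55 and 8.74 in svp, 9.35, 9.72 and 9.48 in flc, and 8.47, 8.30 and 7.98 in the double mutant. The 4 genotypes did not overlap, and ACD6 fell by 1.92 ± 0.45 in flc svp (adjusted p = 0.00273), while -1.57 in svp missed the threshold (adjusted p = 0.034). The call was lost without wild-type array 2 (-1.79) or 3 (-1.86) or flc svp array 3 (-1.80), and when leaves were fitted alone. In LD leaves ACD6 measured 10.07, 7.92 and 8.15 in the wild type, 8.92, 6.87 and 7.12 in svp, 9.74, 7.39 and 8.16 in flc, and 7.77, 6.24 and 6.64 in the double mutant. Array 1 was the highest and array 2 the lowest in all 4 genotypes, and the flc svp arrays lay below the wild-type arrays while svp and flc overlapped them. ACD6 fell by 1.83 ± 0.45 in the LD leaves of double mutants (adjusted p = 0.00724), a call lost without wild-type array 1 (-1.19) or flc svp array 2 (-1.53) or 3 (-1.73). This call was also lost when leaves were fitted alone. With the array number as a fixed block within tissue and day length, a setting chosen after the data were seen, ACD6 was also called lower in svp in SD leaves (adjusted p = 1.24e-05) and LD leaves (-1.07, adjusted p = 0.00397).

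A shared order of arrays was limited neither to ACD6 nor to LD leaves. Of the 77 genes, 9 had their highest LD leaf value on array 1 in all 4 genotypes, among them COR15B, and 11 had their lowest there, among them NCED4, LHCB2.3 and CAT2. In SD apices 13 had their highest value on array 3 in all 4 genotypes, among them CA1, FBA5, MSRB6 and SWEET12. On array 1 of SD apices 7 had their lowest, among them CA2 and CP12-2. The share of all genes with such an order was not counted. The number of an array is a biological replicate number in the labels, and nothing in them says that it marks a shared day or batch.

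AT3G04210, which encodes a TIR-NBS class protein, a type known from disease resistance, and AT5G24210, which encodes an alpha/beta hydrolase, moved the other way in flc. AT3G04210 measured 7.29, 7.55 and 7.34 in wild-type SD leaves and 8.63, 8.84 and 8.52 in flc. It rose by 1.27 ± 0.18 (adjusted p = 4.3e-06) with no overlap. AT5G24210 measured 7.15, 7.99 and 7.45 against 8.64, 9.10 and 8.27 and rose by 1.14 ± 0.24 (adjusted p = 0.000964), a call lost without wild-type array 1 (0.96) or flc array 2 (0.95). Neither was called in svp or flc svp against the wild type. The remaining defence members, the receptor kinase CRK21 and the elicitor-activated ELI3-1, were called in no comparison with the wild type.

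CYP706A6 and AT4G29110 fell in SD leaves of flc and flc svp. CYP706A6 measured 9.56, 9.58 and 9.26 in wild-type SD leaves, 9.06, 8.82 and 8.49 in svp, 8.40, 8.21 and 7.87 in flc, and 8.09, 7.84 and 7.40 in the double mutant. Values of the wild type lay above those of every mutant, and CYP706A6 fell by 1.31 ± 0.25 in flc (adjusted p = 0.000312) and by 1.69 ± 0.25 in the double mutant (adjusted p = 5.73e-06). AT4G29110 measured 6.46, 7.20 and 7.32 in the wild type, 5.95, 5.30 and 5.17 in flc, and 5.67, 5.02 and 5.08 in the double mutant. It fell by 1.52 ± 0.24 in flc (adjusted p = 1.29e-05) and by 1.74 ± 0.24 in the double mutant (adjusted p = 1.13e-06), with no overlap. In LD leaves both fell in flc svp, CYP706A6 by 1.12 ± 0.25 (adjusted p = 0.00292) and AT4G29110 by 1.26 ± 0.24 (adjusted p = 0.000383). The LD call of CYP706A6 was lost without wild-type array 1 (-0.84) or flc svp array 1 (-0.98) or 2 (-1.10), and that of AT4G29110 without wild-type array 1 (-0.92). Both LD calls were also lost when leaves were fitted alone. NCED4, a carotenoid cleavage dioxygenase, measured 7.73, 7.61 and 8.25 in wild-type SD leaves and 6.89, 6.59 and 6.99 in flc svp. It fell by 1.04 ± 0.26 (adjusted p = 0.0044), close to the fold threshold, and the call was lost without wild-type array 1 (-1.07) or 3 (-0.89) or flc svp array 2 (-0.93) or 3 (-1.08). The NCED4 call was also lost when leaves were fitted alone.

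**Figure D4:**
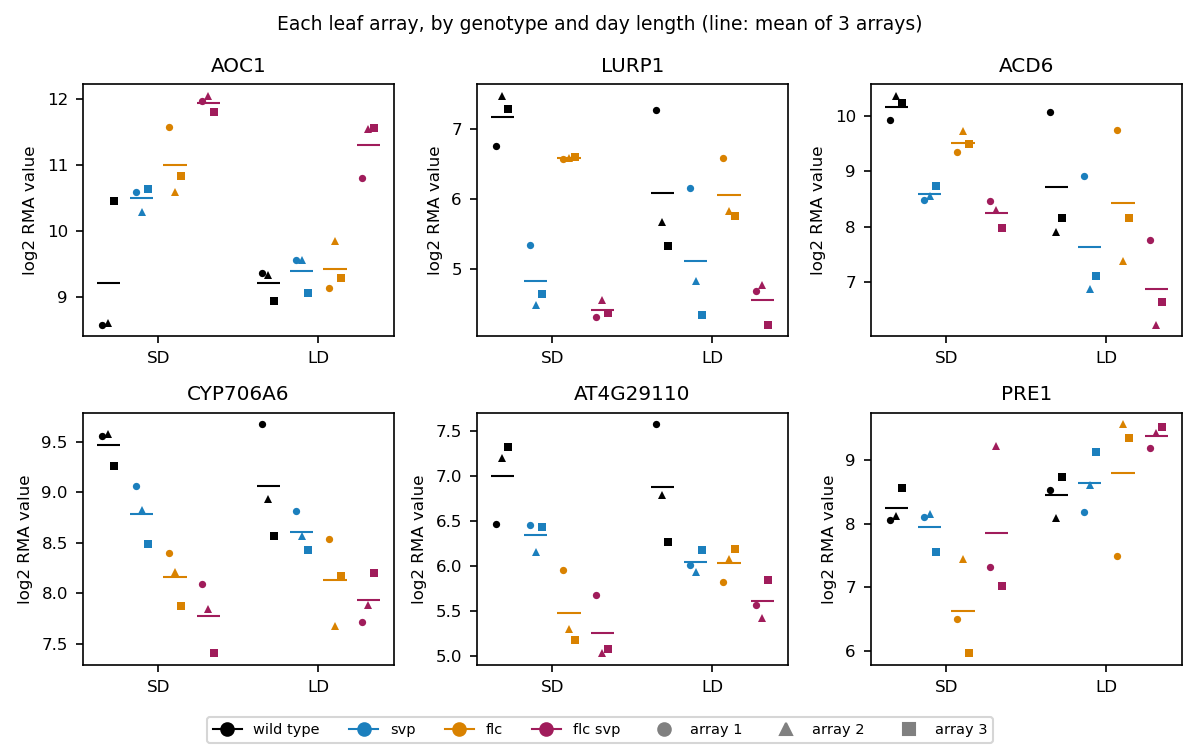
Log2 RMA value (vertical axis) on each leaf array for 6 leaf-enriched genes, by day length (horizontal axis) and genotype (colour). Symbols give the array number and lines the mean of 3 arrays. In SD the svp and flc svp arrays of LURP1 lie below 5.4 while those of wild type and flc lie above 6.5, and in LD array 1 of ACD6 is the highest in every genotype.

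The genes of photosynthesis and carbon metabolism were called in no comparison of a mutant with the wild type. In leaves the changes of these 13 genes lay between -0.57 and 0.19 in SD and between -0.43 and 0.15 in LD, with medians from -0.11 to 0.05. In apices they lay between -0.74 and 0.33 in SD and between -0.32 and 0.82 in LD, with medians of 0.13, -0.08 and 0.10 for svp, flc and flc svp in SD and 0.19, 0.055 and 0.40 in LD. Against flc, where the differences use no wild-type array, 11 of the 13 values for flc svp in LD apices lay above 0 (50.8% of all genes did), with a median of 0.40 and no call. The 13 genes were measured on the same arrays and are not independent of each other. The 11 are therefore not separate observations, and no rise of the group is read from them. CA2 measured 7.57, 7.78 and 7.18 in wild-type and 8.63, 8.54 and 7.81 in flc svp LD apices, without overlap. Its difference of 0.82 ± 0.18 passed the adjusted p (0.00642) and not the fold threshold, which it passed without flc svp array 3 (1.09). SWEET11 kept to 10.02 to 10.42 on the 12 SD leaf arrays and to 10.14 to 10.64 on the 12 LD leaf arrays. No leaf comparison called it or SWEET12, although in flc svp SD leaves SWEET12 (0.81 ± 0.21) passed the adjusted p (0.00794) and not the fold threshold.

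In apices few members were called. In SD apices 0 members were called in svp (0.0452% of all genes higher, 0.171% lower, 0.216% either way) and in flc (0.029%, 0.0452% and 0.0742%), and 1 rose (0.168%) and 0 fell (0.306%) in flc svp (0.474% either way). In LD apices 0 were called in svp (0.0226% and 0.119%) and flc (0.0419% and 0.0226%), and 1 rose (0.11%) and 0 fell (0.284%) in flc svp (0.393% either way). At an unadjusted p under 0.05, limma gave 10 higher and 2 lower in svp, 5 and 10 in flc and 16 and 10 in flc svp in SD apices, and 12 and 1, 7 and 4, and 20 and 2 in LD apices, against 6.8% to 13.8% of all genes in these comparisons. The rule favours genes with low wild-type apex values, so no direction is read from these counts.

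SWEET12 was the member that rose in SD apices of flc svp. It measured 3.64, 3.96 and 4.17 in wild-type apices, 4.13, 4.62 and 5.31 in svp, 3.86, 3.88 and 4.23 in flc, and 5.06, 4.61 and 5.36 in the double mutant. The flc svp arrays lay above the wild-type and flc arrays, and the rise over the wild type was 1.09 ± 0.21 (adjusted p = 0.00121). The wild-type and flc means (3.92 and 3.99) lay below every array median, and whether they were above background is not known, so the size of the rise may be understated. It was lost without wild-type array 1 (0.95) or flc svp array 1 (1.05) or 3 (0.92). The summed levels of the shoot apex markers and root markers in SD apices were 10.64 and 7.21 in the wild type and 10.59 and 7.12 in flc svp (log2).

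PRE1 differed from the other members in that it moved in both tissues. In LD apices it measured 4.66, 4.40 and 4.57 in the wild type, 6.03, 6.13 and 6.83 in svp, 5.03, 6.14 and 5.74 in flc, and 7.12, 7.21 and 7.51 in the double mutant. No mutant overlapped the wild type, and PRE1 rose by 2.73 ± 0.42 in flc svp (adjusted p = 5.49e-05), the largest change of any member in apices against the wild type. In svp the value of 1.79 ± 0.42 missed the threshold (adjusted p = 0.0202), which it passed when apices were fitted alone (adjusted p = 0.00194). In SD apices flc svp arrays (6.47, 7.01 and 6.73) lay above wild-type arrays (4.89, 4.80 and 5.73) with a difference of 1.59 ± 0.42 that missed the threshold (adjusted p = 0.024), and again passed it when apices were fitted alone (adjusted p = 0.00215). In SD leaves PRE1 measured 8.06, 8.13 and 8.56 in the wild type and 6.50, 7.44 and 5.96 in flc. It fell by 1.61 ± 0.42 (adjusted p = 0.00933), close to the limit of adjusted p, and the call was lost without any 1 of wild-type array 1 (-1.66), 2 (-1.71) and 3 (-1.48) and flc array 1 (-1.60) and 3 (-1.25). In LD leaves no genotype differed from the wild type by the test (0.19 to 0.92).

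Comparisons among the mutants use no wild-type array. In SD leaves 1 member was higher (0.384% of all genes) and 1 lower (0.352%) in flc svp than in svp, and 0 were higher (0.119%) and 2 lower (0.239%) than in flc. In LD leaves 1 was higher (0.2%) and 1 lower (0.0613%) than in svp, and 1 was higher (0.21%) and 3 lower (0.206%) than in flc. AOC1 accounted for all 3 rises, with 1.43 ± 0.34 over svp in SD (adjusted p = 0.00719), 1.91 ± 0.34 over svp in LD (adjusted p = 0.000771) and 1.87 ± 0.34 over flc in LD (adjusted p = 0.000546). The SD call was lost without any 1 of the 6 arrays (1.33 to 1.52), and the LD call over svp without svp array 3 (1.72) or flc svp array 2 (1.78). LURP1 was lower in flc svp than in flc in SD (-2.16 ± 0.32, adjusted p = 4.61e-05) and LD (-1.50 ± 0.32, adjusted p = 0.00417), the latter being lost without flc array 1 (-1.27) or 2 (-1.60) or flc svp array 1 (-1.53), 2 (-1.62) or 3 (-1.34). With leaves fitted alone, all 3 AOC1 calls and the LD call of LURP1 were also lost.

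AT5G24210 was also lower in flc svp than in flc, with differences of -1.70 ± 0.24 in SD (adjusted p = 1.64e-05) and -1.32 ± 0.24 in LD leaves (adjusted p = 0.000555). Its LD call was lost when leaves were fitted alone. AT3G04210 was lower than in flc in LD leaves (-1.19 ± 0.18, adjusted p = 6.36e-05, or -0.98 without flc svp array 1). Compared with svp, AT4G29110 was lower in the SD leaves of double mutants (-1.09 ± 0.24, adjusted p = 0.0031) and MRU1 in LD leaves (-1.02 ± 0.21, adjusted p = 0.00447). Both lie near the 2-fold limit: the first was lost without svp array 1 (-1.05) or 3 (-1.04) or flc svp array 2 (-0.98) or 3 (-1.0), and the second without svp array 2 (-0.94) or 3 (-1.0) or flc svp array 1 (-0.81) or 2 (-1.04). Neither call was kept when leaves were fitted alone.

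In SD apices 1 member, SWEET12, was higher in flc svp than in flc (1.02 ± 0.21, adjusted p = 0.00537, 0.0613% of all genes higher), a call lost without flc array 1 (0.97) or 2 (0.97) or flc svp array 1 (0.98) or 3 (0.86), and 0 were lower (0.071%). The SWEET12 call was also lost when apices were fitted alone. No member was called in SD apices of flc svp against svp (0.0194% higher, 0.0161% lower) or in LD apices against svp (0.0226% and 0.00323%) or flc (0.0548% and 0.132%). At an unadjusted p under 0.05 limma gave 5 higher and 6 lower, 11 and 2, and 24 and 2 in these 3 comparisons, against 7.43%, 5.17% and 10.3% of all genes either way. In the last of them, flc svp against flc in LD apices, 56 of the 77 values lay above 0 (50.8% of all genes did), with a median of 0.23 against 0.00 over all genes. The median value of the 77 genes was 4.90, 5.13 and 5.04 on the flc arrays and 5.40, 5.36 and 5.32 on the flc svp arrays. The genes are not independent of each other, so the 56 are not separate observations.

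The single mutants were compared with each other after the data were seen. In SD leaves 3 members were higher in flc than in svp (0.316% of all genes), namely LURP1 (1.76 ± 0.32, adjusted p = 0.000613), AT3G04210 (1.43 ± 0.18, adjusted p = 2.51e-06) and AT5G24210 (1.60 ± 0.24, adjusted p = 3.32e-05). AT5G35480 was the 1 member that was lower (0.0968%), at -1.13 ± 0.27 (adjusted p = 0.00846), a call lost without any 1 of the 6 arrays (-1.22 to -0.97). In LD leaves AT5G24210 was higher in flc (1.04 ± 0.24, adjusted p = 0.00805, 0.21%), which was lost without svp array 1 (0.83) or 3 (0.98) or flc array 1 (0.98), 2 (1.1) or 3 (1.04). In LD apices CGLD27 was lower in flc (-1.05 ± 0.16, adjusted p = 6.71e-05, 0.0226%), or -0.98 without flc array 2. Departures from additivity of both losses were called for 0 members in the 4 combinations of tissue and day length, with 9, 8, 13 and 3 members at an unadjusted p under 0.05 in limma in SD leaves, SD apices, LD leaves and LD apices. Of all genes 1.11%, 0.00968%, 0.4% and 0.0129% were called there, and 10.8%, 6.73%, 8.61% and 3.7% had an unadjusted p under 0.05.

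The third question was how the genes responded to 2 days of LD. In leaves, 2 members rose (0.119% of all genes) and 2 fell (0.145%) in the wild type, 2 rose (0.0806%) and 2 fell (0.297%) in svp, 4 rose (0.306%) and 6 fell (0.532%) in flc (0.839% either way), and 1 rose (0.103%) and 2 fell (0.213%) in flc svp. In all, 11 members were called in leaves in at least 1 genotype. Without wild-type LD array 1 the wild type had 7 called members in place of 4, ACD6 (-2.09, adjusted p = 0.00409) among them, with 1 without SD array 2 and 2 without LD array 2 or 3. AT1G24147 fell and MRU1 rose in all 4 genotypes, and AT2G47880 fell in wild type, flc and flc svp. The median change of the 77 genes was -0.06 in the wild type, -0.13 in svp, 0.00 in flc and 0.04 in the double mutant, against -0.00 to 0.02 over all genes.

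AT1G24147 measured 9.04, 9.08 and 9.53 in SD and 7.93, 7.74 and 7.97 in LD leaves of the wild type. SD and LD arrays did not overlap in any genotype. It fell by 1.34 ± 0.2 in the wild type (adjusted p = 4.34e-05), by 1.0 ± 0.2 in svp (adjusted p = 0.00208), by 1.42 ± 0.2 in flc (adjusted p = 9.31e-06) and by 1.45 ± 0.2 in the double mutant (adjusted p = 2.13e-05). In svp, where the change lay at the fold limit, the call was lost without any 1 of the svp arrays but LD array 2 (-1.01 to -0.93).

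MRU1 measured 6.55, 6.19 and 6.68 in SD and 7.17, 7.71 and 7.89 in LD leaves of the wild type, and 5.82, 5.66 and 5.61 in SD and 6.80, 7.27 and 7.50 in LD leaves of flc. Again no SD array overlapped an LD array in any genotype. The rises were 1.12 ± 0.21 in the wild type (adjusted p = 0.000907, lost without wild-type LD array 3 (0.99) or SD array 2 (0.97)), 1.36 ± 0.21 in svp (adjusted p = 7.07e-05), 1.49 ± 0.21 in flc (adjusted p = 7.02e-06) and 1.29 ± 0.21 in the double mutant (adjusted p = 0.000181). The wild-type call of MRU1 was also lost when leaves were fitted alone. Its neighbour AT5G35480 rose in flc (1.11 ± 0.27, adjusted p = 0.00547), a call lost without flc SD array 1 (1.18), 2 (1.2) or 3 (0.96) or LD array 2 (1.04) or 3 (1.07), and had values of 0.50 to 0.63 in the other genotypes.

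FRO6, of the ferric reductase family, measured 6.47, 5.97 and 6.56 in SD and 7.65, 8.20 and 8.22 in LD leaves of flc, and 6.08, 6.0 and 6.90 against 6.75, 7.96 and 8.24 in the wild type. The flc arrays of both day lengths did not overlap, and those of the wild type did. FRO6 rose by 1.69 ± 0.25 in flc (adjusted p = 2.36e-05) and by 1.32 ± 0.25 in the wild type (adjusted p = 0.00137, lost without wild-type SD array 1 (1.23) or 2 (1.16) or LD array 2 (1.16) or 3 (1.07)). The wild-type call of FRO6 was also lost when leaves were fitted alone. In svp (0.90, adjusted p = 0.0383) and flc svp (0.99, adjusted p = 0.0146) FRO6 missed the threshold. PRE1 rose in LD leaves of flc, by 2.16 ± 0.42 (adjusted p = 0.000714) from 6.50, 7.44 and 5.96 to 7.50, 9.56 and 9.34. The call was lost without flc LD array 2 (1.81) or 3 (1.91) or SD array 3 (1.80).

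Among the genes that fell in LD leaves, AT2G47880 fell by 1.15 ± 0.23 in the wild type (adjusted p = 0.00231, lost without wild-type SD array 2 (-1.02) or LD array 2 (-1.06)), by 1.26 ± 0.23 in flc (adjusted p = 0.00039) and by 1.52 ± 0.23 in the double mutant (adjusted p = 8.69e-05). AT1G76955 fell by 1.17 ± 0.16 in svp (adjusted p = 1.83e-05) and by 1.08 ± 0.16 in flc (adjusted p = 2.74e-05). In the wild type (-0.94, adjusted p = 0.000343) and flc svp (-0.95, adjusted p = 0.000357) it passed the adjusted p and not the fold threshold, which it passed without wild-type SD array 1 (-1.06) or LD array 1 (-1.09) and without flc svp SD array 1 (-1.06) or LD array 2 (-1.15). The pseudogene AT2G16367 measured 10.91, 8.88 and 10.01 in SD and 6.12, 8.24 and 8.24 in LD leaves of flc. The arrays spread widely without overlap, and it fell there by 2.40 ± 0.55 (adjusted p = 0.00406), a call lost without flc SD array 1 (-1.87) or 3 (-2.42) or LD array 1 (-1.71). In wild-type leaves it measured 10.19, 9.67 and 11.56 in SD and 8.40, 8.74 and 7.75 in LD, again without overlap. That difference of -2.18 missed the threshold (adjusted p = 0.0195) and passed it with dim genes left out (adjusted p = 0.00904). MES18 rose in svp by 1.14 ± 0.25 (adjusted p = 0.00463), which was lost without any 1 of the 6 svp arrays (1.08 to 1.21).

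Of the jasmonate genes, AOC1 and AOS fell in LD leaves in flc. AOC1 went from 11.57, 10.59 and 10.83 in SD to 9.14, 9.84 and 9.29 in LD, and AOS from 11.07, 10.37 and 10.44 to 9.50, 9.71 and 9.60. Neither gene's SD and LD arrays overlapped. AOC1 fell by 1.57 ± 0.34 (adjusted p = 0.0021, lost without flc SD array 1 (-1.26) or LD array 1 (-1.44) or 3 (-1.49)) and AOS by 1.02 ± 0.19 (adjusted p = 0.000438, lost without flc SD array 1 (-0.79) or LD array 1 (-0.98)). LOX2 (-1.14, adjusted p = 0.032), AOC2 (-0.64, adjusted p = 0.0961) and CORI3 (-1.39, adjusted p = 0.0108) were below 0 and missed the threshold. Of the 27 genes of the jasmonate list, 0 were called lower in LD leaves in the wild type (0.145% of all genes) and 10 in svp (0.297%). In flc 14 were called lower (0.532%) and in the double mutant 3 (0.213%). The list medians were -0.22, -1.11, -1.32 and -0.68 in the 4 genotypes, and none of the list was called higher.

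In apices the members called for LD were all lower in the fit to all genes, while LHCB2.3, described below, was called higher in flc and flc svp with dim genes left out. Members called lower numbered 5 in the wild type (0.126% of all genes), 4 in svp (0.113%), 3 in flc (0.0903%) and 1 in the double mutant (0.0419%), and 0 were called higher in the wild type (0.171%), svp (0.142%), flc (0.152%) and flc svp (0.0645%). At an unadjusted p under 0.05 limma gave 3 higher and 30 lower in the wild type, 7 and 24 in svp, 4 and 22 in flc, and 5 and 21 in flc svp, against 13%, 16.6%, 14.6% and 11.1% of all genes either way. The median change of the 77 genes was -0.35, -0.23, -0.23 and -0.11 in the 4 genotypes, against -0.02 to -0.00 over all genes. Their median value was 5.23, 5.43 and 5.80 on the wild-type SD apex arrays and 5.24, 5.25 and 5.04 on the LD ones. It was highest on SD array 3 in all 4 genotypes, so the genes moved together between arrays and are not independent of each other. In this median SD and LD arrays overlapped in wild type, svp and flc svp, but not in flc. The svp, flc and flc svp arrays had no part in choosing the genes. For the photosynthesis and carbon metabolism genes 11, 12, 11 and 9 of the 13 had values below 0, with medians of -0.58, -0.58, -0.49 and -0.30. Of all genes 48.7%, 47.3%, 45.9% and 49.7% lay above 0 in these comparisons. The summed level of the shoot apex markers changed from 10.64 to 10.63 in the wild type and stayed between 10.48 and 10.59 in the mutants (log2), and that of the photosynthesis list, which shares CA1 with the members, lay between 15.71 and 15.91 in all apex groups.

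CP12-2 measured 8.33, 8.70 and 8.90 in SD and 7.49, 7.17 and 7.04 in LD apices of the wild type, and 8.44, 8.75 and 8.78 against 7.54, 7.18 and 7.29 in flc. SD and LD arrays did not overlap in any genotype. CP12-2 fell by 1.41 ± 0.16 in the wild type (adjusted p = 6.68e-07), by 1.29 ± 0.16 in svp (adjusted p = 4.29e-06) and by 1.32 ± 0.16 in flc (adjusted p = 4.14e-06). In flc svp the difference of -0.78 passed the adjusted p (0.00917) and not the fold threshold. In leaves its values were -0.57 to -0.30.

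FBA5, the aldolase, measured 7.79, 7.85 and 8.33 in SD and 6.77, 6.83 and 6.30 in LD apices of the wild type. It fell by 1.35 ± 0.19 in the wild type (adjusted p = 1.92e-05), by 1.37 ± 0.19 in svp (adjusted p = 1.79e-05) and by 1.03 ± 0.19 in the double mutant (adjusted p = 0.0022), with -0.98 (adjusted p = 0.00161) in flc. The flc svp call was lost without flc svp SD array 2 (-1.02) or 3 (-1.0) or LD array 2 (-0.95) or 3 (-0.87), and the flc value became a call without flc SD array 1 (-1.05) or 2 (-1.15) or LD array 1 (-1.11) or 3 (-1.06). FBA5 therefore lay near the 2-fold limit in both, and its flc svp call was also lost when apices were fitted alone. CA1 missed the fold threshold in wild-type apices (-0.93, adjusted p = 0.00268) and passed it without wild-type SD array 1 (-1.09) or LD array 1 (-1.05). LHCB2.3, of the light-harvesting antenna of photosystem II, ran against the group, with apical values of 0.76 to 1.30 in the 4 genotypes (adjusted p of 0.0143 to 0.137). With dim genes left out it was called higher in flc (1.12, adjusted p = 0.0089) and flc svp (1.30, adjusted p = 0.00648), and in flc also without SD array 3 (1.41) or LD array 1 (1.51). Its transcripts may share probes with near-identical family members, which was not tested.

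MSRB6, a methionine sulfoxide reductase, measured 6.96, 6.86 and 7.76 in SD and 5.95, 5.08 and 6.36 in LD apices of the wild type. It fell by 1.39 ± 0.26 in the wild type (adjusted p = 0.00114), by 1.13 ± 0.26 in svp (adjusted p = 0.00798) and by 1.28 ± 0.26 in flc (adjusted p = 0.0028). These calls were lost without wild-type SD array 3 (-1.16) or LD array 2 (-1.07), without svp SD array 1 (-1.23), 2 (-1.03) or 3 (-1.13) or LD array 1 (-1.15) or 2 (-0.89), and without flc SD array 2 (-1.28) or 3 (-1.20) or LD array 1 (-1.26), 2 (-1.30) or 3 (-1.30). AT3G62550 fell by 1.05 ± 0.18 in the wild type (adjusted p = 0.000354) and by 1.02 ± 0.18 in svp (adjusted p = 0.000555), lost without wild-type SD array 3 (-0.84) or LD array 1 (-0.95), and without svp SD array 3 (-0.87) or LD array 2 (-0.97) or 3 (-0.98). MSRB6 and AT3G62550 both lost their wild-type and svp calls when apices were fitted alone.

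COR15B, a cold-regulated chloroplast protein, had the largest LD falls among the genes called in apices, with a wide spread among arrays. It measured 9.57, 9.64 and 9.49 in SD and 7.84, 7.10 and 6.33 in LD apices of the wild type, 9.75, 9.42 and 9.52 against 8.35, 7.14 and 6.71 in svp, 10.39, 9.74 and 10.45 against 8.46, 7.79 and 7.14 in flc, and at least 9.73 against 8.76, 7.89 and 6.65 in flc svp. LD arrays lay below SD arrays in every genotype, and in LD array 1 was the highest and array 3 the lowest in all 4. COR15B fell by 2.47 ± 0.54 in the wild type (adjusted p = 0.00643) and by 2.40 ± 0.54 in flc (adjusted p = 0.00765), with -2.16 in svp (adjusted p = 0.0161) and -2.12 in the double mutant (adjusted p = 0.04). The wild-type call was lost without wild-type SD array 1 (-2.57), 2 (-2.43) or 3 (-2.43) or LD array 2 (-2.49) or 3 (-2.18), and the flc call without any 1 of its 6 arrays (-2.64 to -2.15). In LD leaves COR15B had the same order of arrays (11.70, 10.43 and 9.89 in the wild type, against 12.33, 12.68 and 12.41 in SD), and its values of -1.80 to -1.32 missed the threshold in all 4 genotypes.

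**Figure D5:**
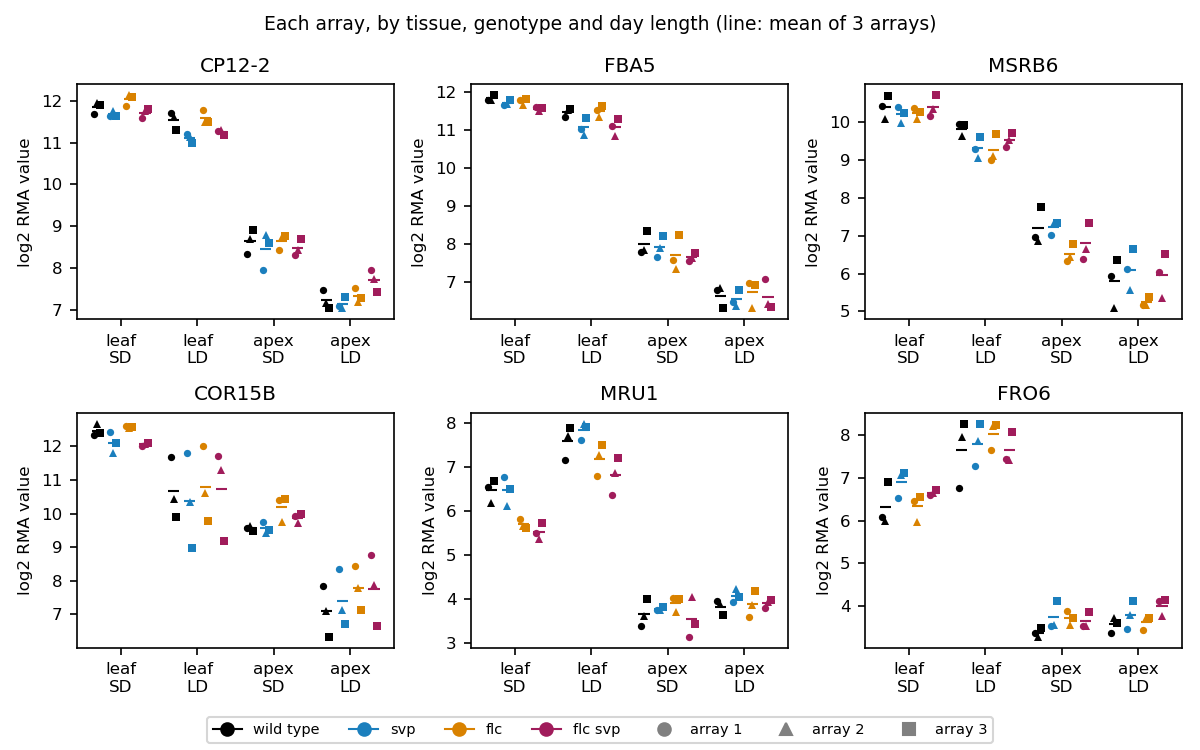
Log2 RMA value (vertical axis) on each array for 6 leaf-enriched genes by tissue and day length (horizontal axis) and genotype (colour). Symbols give the array number and lines the mean of 3 arrays. CP12-2, FBA5 and COR15B are lower in LD than in SD on every apex array of a genotype, COR15B with a spread among LD arrays that follows the array number, and MRU1 is higher in LD than in SD on every leaf array of a genotype.

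Whether the LD response differed between tissues was tested in the 3 mutants, since in the wild type this difference is part of the rule. MRU1 (1.53 ± 0.29, adjusted p = 0.00281) and FRO6 (1.78 ± 0.36, adjusted p = 0.00434) were called in flc, where 0.0871% of all genes had a higher response in leaves. In svp and flc svp 0 members were called, where 0.0323% and 0.0355% of all genes were called either way. At an unadjusted p under 0.05 limma gave 15 higher and 6 lower in svp, 20 and 8 in flc, and 14 and 5 in flc svp, against 11.3%, 14.8% and 9.76% of all genes. The apical means of MRU1 (3.91 in SD and 3.88 in LD) and FRO6 (3.73 and 3.64) in flc lay below every array median, so a change in apices may not have been measurable. For the apical genes CP12-2, FBA5, MSRB6 and COR15B a difference from leaves was thus not shown by this test. Whether the LD response of a mutant differed from that of the wild type was tested for each mutant and tissue, and 0 members were called in these 6 comparisons (at an unadjusted p under 0.05, 2 to 8 in leaves and 4 to 13 in apices by limma). Of all genes 0% to 0.1% were called in these comparisons and 4.2% to 10.1% had an unadjusted p under 0.05, so a count of 0 among 77 genes is near the background, and LD calls seen in some genotypes only are not shown to differ between genotypes.

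Of the other lists to which members belong, the guard cell list holds AT1G22690, whose LD leaf values of 0.59 to 0.92 lay under the fold threshold in all 4 genotypes. SWEET11 and SWEET12 of the sugar transport list had LD values between -0.35 and 0.44 in both tissues and no call. In all, 16 members were called for LD in some setting (1.65% of all genes were) and 25 of the 77 for either a mutation or LD (4.27%), and 52 were called in none of the 28 comparisons made within a tissue between mutant and wild type, between flc svp and svp or flc, or between day lengths (4.43% of all genes were called in at least 1 of these). These counts draw in part on the wild-type arrays that chose the members.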

How the data were processed

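RNA from leaves and apices was hybridised to 48 AGRONOMICS1 tiling arrays, 3 per group. The authors deposited one log2 value per gene and array after RMA background correction, normalization and summary, per the labels and the study's methods; the gene model release is not given in the sources used here. The deposited log2 values were used unchanged.

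Members were found from the wild-type group means. Members, lists and role groups were chosen with earlier results of these data known. A linear model with 16 group means and replicate number as random block, after the study's methods, was fitted to all 31004 genes with limma 3.58.1 in R 4.3.3, with Benjamini-Hochberg adjustment in place of Storey's q within each of 34 planned comparisons and 17 added after the data were seen. Named genes were the 10 largest by mean difference, those at the limit, members of the lists, up to 3 called, non-overlapping members per direction and comparison and the extremes of each mutant; all other called members were named after their values were seen. Symbols came from the RefSeq gene table, which held 76 of the 77. The fit was tested on simulated data. Number of arrays limits the precision. Figures used Python and matplotlib.

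Alternatives were no replicate block, a replicate block fixed within tissue and day length (added), no fold threshold, a filter on dim genes, a separate fit for each tissue, other member rules and leaving out each array. No sequences are shown.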

Additional observations from a re-analysis of the deposited data

Results flagged for a closer look

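The response of MRU1 to LD in flc was larger in leaves than in apices by 1.53 on the log2 scale (adjusted p = 0.00281, limma, 3 arrays per group), a tested difference between tissues. LD leaf arrays lay above SD leaf arrays in all 4 genotypes, while the apical changes lay between -0.03 and 0.36. The apical means in flc (3.91 in SD and 3.88 in LD) lay below every array median (4.27 to 4.38), so a change there may not have been measurable and the size of the difference between tissues is uncertain. The call was lost without flc LD leaf array 2 (1.49) or 3 (1.39), SD apex array 1 (1.45) or LD apex array 1 (1.40).

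The response of FRO6 in flc was larger in leaves than in apices by 1.78 (adjusted p = 0.00434, limma). Its apical changes lay between -0.09 and 0.36. Its apical means in flc were 3.73 in SD and 3.64 in LD, also below every array median, with the same limit on the comparison. The call was lost without flc SD leaf array 2 (1.61), LD leaf array 2 (1.68) or 3 (1.73), SD apex array 1 (1.66) or LD apex array 1 (1.72) or 3 (1.79). Groups of 3 arrays were not tested for single outlying arrays.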

How the results depend on the processing

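Of 66 gene calls in the comparisons, 29 held in every alternative and 0 reversed, and with 3 arrays per group many others lay near the 2-fold or adjusted p limit. The replicate block was part of the study's own model. Over all 360 pairs, which span tissues and day lengths, same-numbered arrays deviated together weakly (median r 0.0529, from -0.147 to 0.337). Within one tissue and day length the medians were 0.0841 (SD leaves), 0.144 (LD leaves, 13 of 18 pairs over 0.1), 0.0504 (SD apices) and 0.0918 (LD apices). The lowest of the 18 pairs was -0.0398, 0.00932, 0.00335 and 0.0138 in that order. Whether same-numbered arrays shared handling is not stated in the labels and was not tested. Without the replicate block no count moved beyond 1.5 times, and ACD6 (LD leaves, flc svp), COR15B (wild-type and flc apices), MSRB6 (svp apices) and PRE1 (SD leaves, flc) lost their calls. With the replicate block fixed within tissue and day length, added after the data were seen, the counts became 2 for svp in SD leaves, 2 for flc svp in SD apices, 1 for svp in LD leaves, 1 for svp in LD apices and 4 for flc svp against svp in SD leaves. Without the fold threshold the counts against the wild type became 2 (svp, SD leaves), 15 and 9 (flc svp, SD and LD leaves), 2 (flc, LD leaves), 2 and 3 (flc svp, SD and LD apices) and 1 (svp, LD apices); for LD against SD they became 7 (flc svp leaves) and 13, 10, 8 and 2 (apices of wild type, svp, flc and flc svp), and for flc svp 5 against svp in SD leaves and 2 and 2 against flc in SD and LD apices. With each tissue fitted separately they became 4 and 1 (flc svp against wild type, SD and LD leaves), 2 (flc svp, SD apices), 1 (svp, LD apices), 2 (LD, wild-type leaves), 3, 2 and 0 (LD, apices of wild type, svp and flc svp), 0 and 0 (flc svp against svp, SD and LD leaves), and 0, 1 and 1 (flc svp against flc, SD apices, LD leaves and LD apices). With genes of mean at least 5 in a group, svp in SD leaves had 2 calls and LD against SD in flc svp apices 2. The cause of these changes was not tested. A limit of 2 or 3 gave 189 or 31 members. With members chosen on flc svp means, median changes against the wild type were 0.31 (flc) and 0.40 (flc svp) in SD leaves, 0.21 and 0.38 in LD leaves and 0.10 (flc svp) in LD apices; for LD against SD they were -0.21, -0.28 and -0.16 in leaves of svp, flc and flc svp and -0.043 in wild-type apices; for flc svp they were 0.27 and 0.19 against svp in SD and LD leaves and 0.063 against flc in LD apices. With the limit of 3, they were -0.26 and -0.14 for LD in leaves of flc and flc svp and 0.031 for flc svp against svp in SD leaves. Leaving out each array gave counts of 1 to 2 (svp, SD leaves; 2 without wild-type array 1 or 3), 4 to 6 (flc, SD leaves), 5 to 7 (flc svp, SD leaves), 0 to 1 (svp, SD apices; svp array 1), 0 to 1 (flc, SD apices; wild-type array 2, flc array 3), 0 to 1 (flc svp, SD apices; 0 without wild-type array 1 or flc svp array 1 or 3), 0 to 1 (svp, LD leaves; svp array 1, wild-type array 3), 0 to 2 (flc, LD leaves; wild-type array 3), 3 to 5 (flc svp, LD leaves; 3 without wild-type array 1 or flc svp array 2) and 1 to 2 (flc svp, LD apices; flc svp array 3). For LD against SD they were 1 to 7, 2 to 3, 7 to 9 and 3 to 4 in leaves and 2 to 5, 2 to 5, 1 to 4 and 0 to 1 in apices of wild type, svp, flc and flc svp; the lowest apical counts arose without wild-type SD array 3, svp SD array 3 or LD array 2, flc LD array 2, and flc svp SD or LD array 2 or 3, and the lowest in svp leaves without SD array 1, 2 or 3 or LD array 3. For flc svp against svp they were 0 to 3 and 0 to 2 in SD and LD leaves and 0 to 1 in SD apices, and against flc 2 to 4 in LD leaves and 0 to 2 and 0 to 1 in SD and LD apices. Leaf against apex counts in the mutants stayed between 74 and 77 whichever array was left out.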
